A study of Mus musculus with 40 samples.

Results

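The genes described here are 34 genes of the reactive astrocyte and cytokine response, chosen by symbol from the 25239 genes of a count table of mouse primary visual cortex (V1) astrocyte nuclei. They were chosen by name as a group, with earlier results of these data known. They comprise receptors and signalling parts of the interleukin-6 (IL-6) cytokine family (Il6st, Lifr, Osmr, Il6ra, Stat3, Socs3 and Clcf1), filament and membrane genes of reactive astrocytes (Gfap, Vim, Cd44, S100a10, Anxa2 and others), complement and acute-phase genes (C3, C4b, Serping1, Serpina3n, Lcn2, Cp and Ptx3), and further markers of reactive states (Aspg, Amigo2, Fbln5, S1pr3 and others).

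The libraries came from sorted nuclei of GRfl/fl mice, in which Nr3c1, the gene of the glucocorticoid receptor (GR), is floxed. GR-KO animals had received at P0-P1 an AAV2/5 vector carrying Cre, and GR-Con animals the same vector carrying ΔCre, both under GfaABC1D, an astrocyte promoter fragment taken from the human GFAP gene. Each replicate pooled V1 of 1 male and 1 female, DRAQ5+/GFP+ nuclei were collected, and dark-reared (DR) and normal-reared (NR) mice were taken at postnatal days 14, 21 and 28 (P14, P21 and P28). The 40 libraries form 12 groups of age, rearing and genotype, namely 4 replicates for each DR genotype at P21 and at P28, and 3 replicates otherwise. Because GR-KO received Cre and GR-Con did not, GR loss and the presence of Cre cannot be told apart.

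Astrocytes answer injury, infection and cytokines by changing their filaments, surface proteins and secreted factors. Cytokines of the IL-6 family signal through gp130, the protein of Il6st, which pairs with a partner receptor such as LIFR or OSMR and activates STAT3, whose feedback inhibitor is SOCS3. Glucocorticoids are known as anti-inflammatory hormones, and GR is known to act together with or against STAT and NF-kB factors.

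Library totals ran from 17240294 to 49221787 counts, and levels are given as CPM, counts scaled to a common library size after normalization. The P21 NR libraries of both genotypes were the shallowest, with 17240294 to 28137389 counts, and every other library held at least 29500264. Comparisons of P21 NR with other ages or with DR thus also set unlike depths side by side. The part of depth in these results was not tested. The 12 astrocyte markers were all tested and summed to 13450 to 18490 CPM (median 15080) in GR-KO libraries, against 15070 to 20260 CPM (median 16590) in GR-Con libraries, with 1 called higher and 4 lower in the average of GR-KO against GR-Con; their part in the results below was not tested. Neuron markers were present too, with a sum of 2325 to 4335 CPM over 10 genes. Nr3c1 transcripts were slightly higher in GR-KO (average log2 fold change 0.15 ± 0.04 (SE, adjusted p = 0.00278)), and its counts do not read the recombination. The GR targets Fkbp5 and Tsc22d3 were lower in GR-KO, with average log2 fold changes of -1.60 ± 0.15 (SE, adjusted p = 1.34e-10) and -1.22 ± 0.07 (SE, adjusted p = 3.18e-15). Of the other cell types, the markers of oligodendrocyte precursors had a summed level of 198 to 278 CPM (median 224) in GR-KO. In GR-Con it was 138 to 230 CPM (median 160). Of these markers 7 were tested, with 2 called higher in GR-KO in the average and 1 at each age and rearing. Vcan held the most counts of them over all libraries, 152123, against 37654 for Olig1, the next highest. The paper reports Vcan among the genes raised by GR loss in V1 astrocytes, so this sum cannot be read as precursor cells alone. The part of the precursor markers in the results below was not tested. In the average of GR-KO against GR-Con, 2 of 9 tested microglia markers, 1 of 7 meningeal and 1 of 10 oligodendrocyte markers were called lower. Of 10 neuron markers 1 was higher, and of 12 endothelial and mural markers 1 was higher and 1 lower. Of 7 ependyma and choroid plexus markers 3 were called higher in GR-KO at P21 under NR and 1 lower at P21 under DR. The part of these markers was not tested either. A set of 4 libraries with high sums of meningeal or ependymal markers was chosen after seeing the data, namely P28 DR GR-KO replicate 4, P21 NR GR-KO replicate 1, P21 DR GR-Con replicate 4 and P14 NR GR-Con replicate 1. Outside this set, P14 NR GR-Con replicate 2 had a meningeal sum of 83.5 CPM. P28 DR GR-Con replicates 1 and 2 had ependymal sums of 21.9 and 20.9 CPM. Leaving out the set therefore does not remove every raised sum. In bulk nuclei, fewer cells of a type and less RNA per cell cannot be told apart.

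Counts were found for 30 of the 34 genes. Timp1, a protease inhibitor, Cxcl10, a chemokine, Ptx3, a pentraxin, and Clcf1, a ligand of the IL-6 family, had 0 counts in all 40 libraries. Timp1 lies wholly inside Syn1, Cxcl10 inside Art3 and Ptx3 inside Veph1, and 98% of Clcf1 is covered by Gm45928. Of the 2106 genes of the table that lie wholly inside another gene, 91.0% had no count in any library, against 9.21% of the 17932 genes without overlap, so the zeros of these genes cannot be read as missing expression. Lcn2, the iron-carrier lipocalin-2, and Steap4, a metalloreductase, fell below the filter on low counts, with highest levels of 1.89 and 4.85 CPM. The remaining 28 genes were tested in every comparison with edgeR's quasi-likelihood test, with p values adjusted over all 17106 genes tested.

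In GR-KO astrocytes the parts of the cytokine receptor complexes moved in opposite directions. Il6st (chr13:112464070-112506860, GRCm38), which encodes the shared subunit gp130, rose at P21 and P28 under both rearings, and Lifr (chr15:7090610-7197489), which encodes the receptor for leukaemia inhibitory factor that pairs with gp130, was lower at P21 under both rearings and also at P14 under NR and P28 under DR. Osmr (chr15:6813568-6874968), the oncostatin M receptor and another partner of gp130 among the genes, rose at P21 under both rearings and at P28 under DR. Stat3, Socs3 and Il6ra were called in none of the 6 comparisons of GR-KO with GR-Con.

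At P21 under NR, Il6st had 161, 134 and 138 CPM in GR-KO, against 105, 98.3 and 100.1 CPM in GR-Con (log2 fold change 0.51 ± 0.07 (SE), adjusted p = 9.74e-06). At P21 under DR it had 132, 153, 139 and 145 CPM in GR-KO, against 101, 113, 104 and 105 CPM in GR-Con (log2 fold change 0.43 ± 0.06 (SE), adjusted p = 1.07e-05). Every GR-KO library at P21 was thus above every GR-Con library of its rearing. At P28 under NR the levels of Il6st were 122, 123 and 121 CPM in GR-KO, against 107, 92 and 93.5 CPM in GR-Con (log2 fold change 0.32 ± 0.07 (SE), adjusted p = 0.00598), and at P28 under DR they were 107, 121, 127 and 118 CPM in GR-KO, against 95.3, 91, 99 and 102 CPM in GR-Con (log2 fold change 0.29 ± 0.06 (SE), adjusted p = 0.00477), again without overlap. At P14 the differences of Il6st were smaller and not called, 0.09 (95% interval -0.06 to 0.24, adjusted p = 0.853) under NR and 0.13 (95% interval -0.02 to 0.28, adjusted p = 1) under DR. The calls of Il6st at P21 and P28 held with each library left out, and those at P28 were lost when only the groups compared were fitted (adjusted p = 0.152 under NR and 0.101 under DR).

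Lifr had 128, 142 and 129 CPM in GR-KO, against 153, 186 and 198 CPM in GR-Con at P14 under NR (log2 fold change -0.43 ± 0.10 (SE), adjusted p = 0.0138). At P21 under NR the levels were 152, 139 and 154 CPM in GR-KO, against 211, 218 and 214 CPM in GR-Con (log2 fold change -0.53 ± 0.10 (SE), adjusted p = 2.44e-04). No GR-KO library reached a GR-Con library in either comparison, and P21 NR GR-Con held the highest Lifr of the 12 groups. Under DR, Lifr averaged 149.6 ± 10.7 CPM in GR-KO, against 182 ± 13.4 CPM in GR-Con (SD, n = 4 each) at P21, with a log2 fold change -0.29 ± 0.08 (SE), adjusted p = 0.0278. At P28 under DR it averaged 147 ± 5.65 CPM in GR-KO, against 181 ± 15.7 CPM in GR-Con (SD, n = 4 each), with a log2 fold change -0.30 ± 0.08 (SE), adjusted p = 0.0344. The groups did not overlap at P28 under NR or at P14 under DR either, but the differences of -0.29 (95% interval -0.48 to -0.09, adjusted p = 0.0753) and -0.31 (95% interval -0.51 to -0.12, adjusted p = 0.289) were not called. Averaged over the 6 combinations of age and rearing, Lifr had a log2 fold change of -0.36 ± 0.04 (SE, adjusted p = 2.16e-09) and Il6st of 0.29 ± 0.03 (SE, adjusted p = 4.29e-10).

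The call of Lifr at P21 under NR held with each library left out, and the other 3 stood near the threshold. At P14 under NR it was lost without GR-KO replicate 1 or 3 or GR-Con replicate 2 or 3 (adjusted p up to 0.131). At P21 under DR it was lost without GR-KO replicate 1, 2 or 3 or GR-Con replicate 2 or 4 (up to 0.0951). At P28 under DR it was lost without any library but GR-Con replicate 3 (up to 0.26). The calls of Lifr at P14 under NR and P28 under DR were also lost when only the groups compared were fitted (0.112 and 0.0989).

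Osmr was the receptor with the largest difference at a given age. At P21 under NR it had 29.5, 24.2 and 27.2 CPM in GR-KO, against 11.7, 11.2 and 13.8 CPM in GR-Con (log2 fold change 1.13 ± 0.19 (SE), adjusted p = 7.11e-05), a 2.20-fold higher level in GR-KO with no overlap. Under DR the levels were 15.8, 25.1, 23.2 and 26.2 CPM in GR-KO, against 13.5, 17.2, 15.7 and 15.3 CPM in GR-Con at P21 (log2 fold change 0.55 ± 0.15 (SE), adjusted p = 0.0203). At P28 under DR they were 26.9, 16.6, 19 and 23.7 CPM in GR-KO, against 17.8, 15.9, 11.6 and 13 CPM in GR-Con (log2 fold change 0.56 ± 0.15 (SE), adjusted p = 0.0316). GR-KO overlapped GR-Con at both ages under DR. At P28 under NR, where Osmr had 22.4, 19.9 and 17.5 CPM in GR-KO, against 15, 17.9 and 19.8 CPM in GR-Con, the difference was 0.18 (95% interval -0.18 to 0.54, adjusted p = 0.658). At P14 under NR all GR-KO libraries were below all GR-Con libraries, with 30.6, 34.8 and 29.3 CPM in GR-KO, against 36.1, 36.6 and 35.8 CPM in GR-Con, a difference of -0.19 (95% interval -0.55 to 0.16, adjusted p = 0.889). The call at P21 under NR held with each library left out. Under DR it was lost at P21 without GR-KO replicate 2 or 4 or GR-Con replicate 1 or 4 (adjusted p up to 0.0982), and at P28 without GR-KO replicate 1 or 4 or GR-Con replicate 3 or 4 (up to 0.161). The call at P28 under DR was also lost when only the groups compared were fitted (0.177). Both calls under DR were lost without the 4 libraries with high meningeal or ependymal markers (0.0597 at P21 and 0.136 at P28).

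Members of the signalling chain below these receptors showed small differences on average. Stat3 ranged from 52.1 to 95.1 CPM, with an average difference between GR-KO and GR-Con of 0.00 (95% interval -0.09 to 0.10, adjusted p = 0.991). Socs3 (0.359 to 1.76 CPM) differed by 0.23 (95% interval -0.04 to 0.51, adjusted p = 0.27). Il6ra, the IL-6 receptor subunit (0.811 to 4.18 CPM), differed by -0.05 (95% interval -0.32 to 0.22, adjusted p = 0.843). The interval of Stat3 was the narrowest of the 3, and those of Socs3 and Il6ra, with 1774 and 3520 counts over all libraries against 96302 for Stat3, leave room for larger differences.

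**Figure D1:**
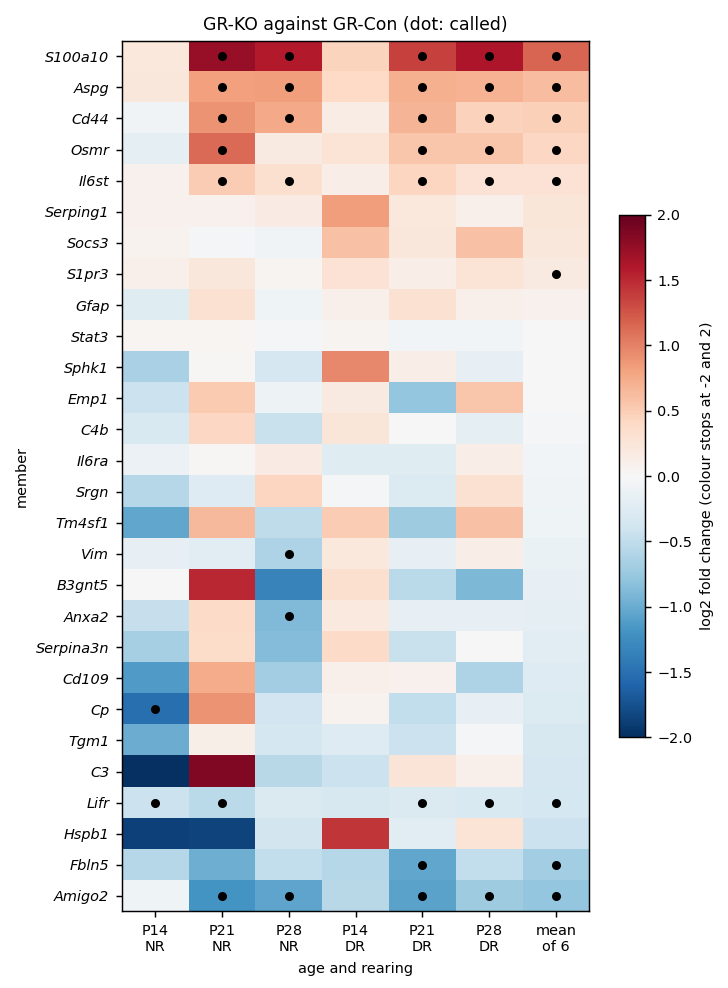
Log2 fold change of GR-KO over GR-Con for the 28 tested genes (rows) at each age and rearing (columns), with a dot where a gene was called. Rows are in order of the average over the 6 combinations, which is the last column. Colours stop at -2 and 2. S100a10, Aspg, Cd44 and Il6st are dotted as higher in the 4 columns of P21 and P28, Amigo2 is dotted as lower in the same 4, and no gene is dotted at P14 under DR.

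Among membrane and filament genes, S100a10 (chr3:93555117-93564645), which encodes the annexin A2 partner p11, showed the largest change of the called genes. At P21 under NR it had 18.3, 14.9 and 12.3 CPM in GR-KO, against 3.17, 4.36 and 5.95 CPM in GR-Con (log2 fold change 1.74 ± 0.23 (SE), adjusted p = 2.59e-06). At P28 under NR it had 13.8, 13.9 and 14.5 CPM in GR-KO, against 6.29, 4.34 and 3.38 CPM in GR-Con (log2 fold change 1.58 ± 0.22 (SE), adjusted p = 1.03e-05). These are 3.34-fold and 2.99-fold higher levels in GR-KO, with the groups far apart. Under DR, S100a10 had 14.7, 14.7, 16.5 and 15.9 CPM in GR-KO, against 6.3, 5.88, 4.91 and 6.88 CPM in GR-Con at P21 (log2 fold change 1.36 ± 0.18 (SE), adjusted p = 2.79e-06). At P28 under DR it had 14.1, 16.5, 18 and 15.4 CPM in GR-KO, against 4.24, 3.83, 5.54 and 7.21 CPM in GR-Con (log2 fold change 1.62 ± 0.19 (SE), adjusted p = 2.83e-07). Every GR-KO library at P21 and P28 was at or above 12.3 CPM and every GR-Con library at or below 7.21 CPM. At P14 the level of S100a10 was 12.3, 9.28 and 10.9 CPM in GR-KO, against 11.9, 9.82 and 6.17 CPM in GR-Con under NR, where the groups overlapped, and 12.8, 11.6 and 10.7 CPM in GR-KO, against 7.35, 8.98 and 9.55 CPM in GR-Con under DR, where they did not, and neither difference was called (0.21 (95% interval -0.22 to 0.65, adjusted p = 0.911) and 0.44 (95% interval 0.00 to 0.87, adjusted p = 1)). All 4 calls held with each library left out.

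Cd44 (chr2:102811141-102901669), the receptor for hyaluronan on reactive astrocytes, had 64.9, 42.2 and 47.5 CPM in GR-KO, against 28.2, 24 and 30.7 CPM in GR-Con at P21 under NR (log2 fold change 0.90 ± 0.15 (SE), adjusted p = 5.88e-05). Its levels at P28 under NR were 45.9, 44.3 and 31.3 CPM in GR-KO, against 26.7, 23.3 and 22 CPM in GR-Con (log2 fold change 0.76 ± 0.14 (SE), adjusted p = 7.80e-04). The genotypes did not overlap at either age. Under DR it had 33, 43.8, 39.5 and 41 CPM in GR-KO, against 22.4, 24.4, 25.1 and 26.4 CPM in GR-Con at P21 (log2 fold change 0.68 ± 0.12 (SE), adjusted p = 2.56e-04). Its levels at P28 under DR were 34.6, 35.4, 30.0 and 32.2 CPM in GR-KO, against 24.3, 25.2, 23.3 and 22.9 CPM in GR-Con (log2 fold change 0.47 ± 0.12 (SE), adjusted p = 0.0256). GR-KO was again above GR-Con in every library. At P14 Cd44 was not called (-0.07 (95% interval -0.36 to 0.22, adjusted p = 0.961) under NR and 0.14 (95% interval -0.15 to 0.43, adjusted p = 1) under DR). The call at P28 under DR was lost without GR-KO replicate 1 or 2 or GR-Con replicate 1, 3 or 4 (adjusted p up to 0.0986), and the other 3 held with each library left out.

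Aspg (chr12:112106683-112127573), an asparaginase found among genes of reactive astrocytes, averaged 26.8 ± 7.31 CPM in GR-KO, against 15.1 ± 4.97 CPM in GR-Con (SD, n = 3 each) at P21 under NR, with a log2 fold change 0.82 ± 0.22 (SE), adjusted p = 0.0147. At P28 under NR it had 21, 18 and 22.6 CPM in GR-KO, against 9.87, 13 and 11.7 CPM in GR-Con (log2 fold change 0.84 ± 0.21 (SE), adjusted p = 0.0162). Aspg was higher under DR as well. At P21 under DR it had 15.4, 26.6, 30.4 and 32 CPM in GR-KO, against 13.5, 17.3, 19.3 and 13.6 CPM in GR-Con (log2 fold change 0.71 ± 0.18 (SE), adjusted p = 0.0106). Its levels at P28 under DR were 25.5, 16.1, 23 and 21.2 CPM in GR-KO, against 13.7, 12.6, 13.1 and 13.6 CPM in GR-Con (log2 fold change 0.70 ± 0.18 (SE), adjusted p = 0.0246). GR-KO overlapped GR-Con at P21 under both rearings and not at P28. Each of these calls was lost without some single libraries, while the log2 fold change stayed between 0.598 and 1.13. The calls were lost without GR-KO replicate 1 or GR-Con replicate 1 or 2 at P21 under NR (adjusted p up to 0.179), and without GR-KO replicate 1 or GR-Con replicate 1 or 3 at P28 under NR (up to 0.114). Under DR they were lost without GR-KO replicate 4 or GR-Con replicate 1 or 4 at P21 (up to 0.0695), and without any library but GR-KO replicate 2 at P28 (up to 0.0844). The average difference of Aspg, 0.62 ± 0.08 (SE, adjusted p = 5.41e-07), kept its call without any library of the 40.

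Amigo2 and Fbln5 were lower in GR-KO. Amigo2 (chr15:97244074-97247287), which encodes a cell adhesion protein of neurons and glia, had 3.94, 3.97 and 3.31 CPM in GR-KO, against 9.87, 7.79 and 8.09 CPM in GR-Con at P21 under NR (log2 fold change -1.19 ± 0.20 (SE), adjusted p = 9.88e-05). The levels at P28 under NR were 4.53, 3.79 and 4.83 CPM in GR-KO, against 9.96, 6.54 and 10.7 CPM in GR-Con (log2 fold change -1.05 ± 0.19 (SE), adjusted p = 3.37e-04). Dark-reared mice showed the same direction. At P21 under DR the levels were 3.97, 4.48, 5.27 and 3.23 CPM in GR-KO, against 9.76, 8.79, 8.04 and 9 CPM in GR-Con (log2 fold change -1.07 ± 0.16 (SE), adjusted p = 1.44e-05). The levels at P28 under DR were 4.74, 5.26, 4.77 and 5.96 CPM in GR-KO, against 7.34, 8.42, 7.59 and 10.5 CPM in GR-Con (log2 fold change -0.70 ± 0.16 (SE), adjusted p = 0.00547). No GR-KO library reached a GR-Con library in these 4 comparisons, and all 4 calls held with each library left out. Pced1b covers 9.80% of Amigo2. Fbln5, the matrix protein fibulin-5, averaged 1 ± 0.192 CPM in GR-KO, against 2.07 ± 0.518 CPM in GR-Con (SD, n = 4 each) at P21 under DR, with a log2 fold change -1.04 ± 0.29 (SE), adjusted p = 0.0209, a call lost without GR-KO replicate 2 or 4 or GR-Con replicate 2 or 4 (adjusted p up to 0.0849). Over all libraries Fbln5 ran between 0.562 and 1.50 CPM in GR-KO (median 1.00, n = 20), against 0.684 and 2.61 CPM in GR-Con (median 1.54, n = 20), with an average difference of -0.69 ± 0.14 (SE, adjusted p = 2.25e-04).

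S1pr3, a receptor for sphingosine 1-phosphate, was called only in the average of the 6 comparisons, at 0.18 ± 0.05 (SE, adjusted p = 0.0153), with 8.46 to 14.5 CPM (median 10.5) in GR-KO and 7.70 to 13.0 CPM (median 8.88) in GR-Con. Without P21 NR GR-KO replicate 1, which had the highest S1pr3 of all libraries, the average was 0.14 (adjusted p = 0.0534).

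**Figure D2:**
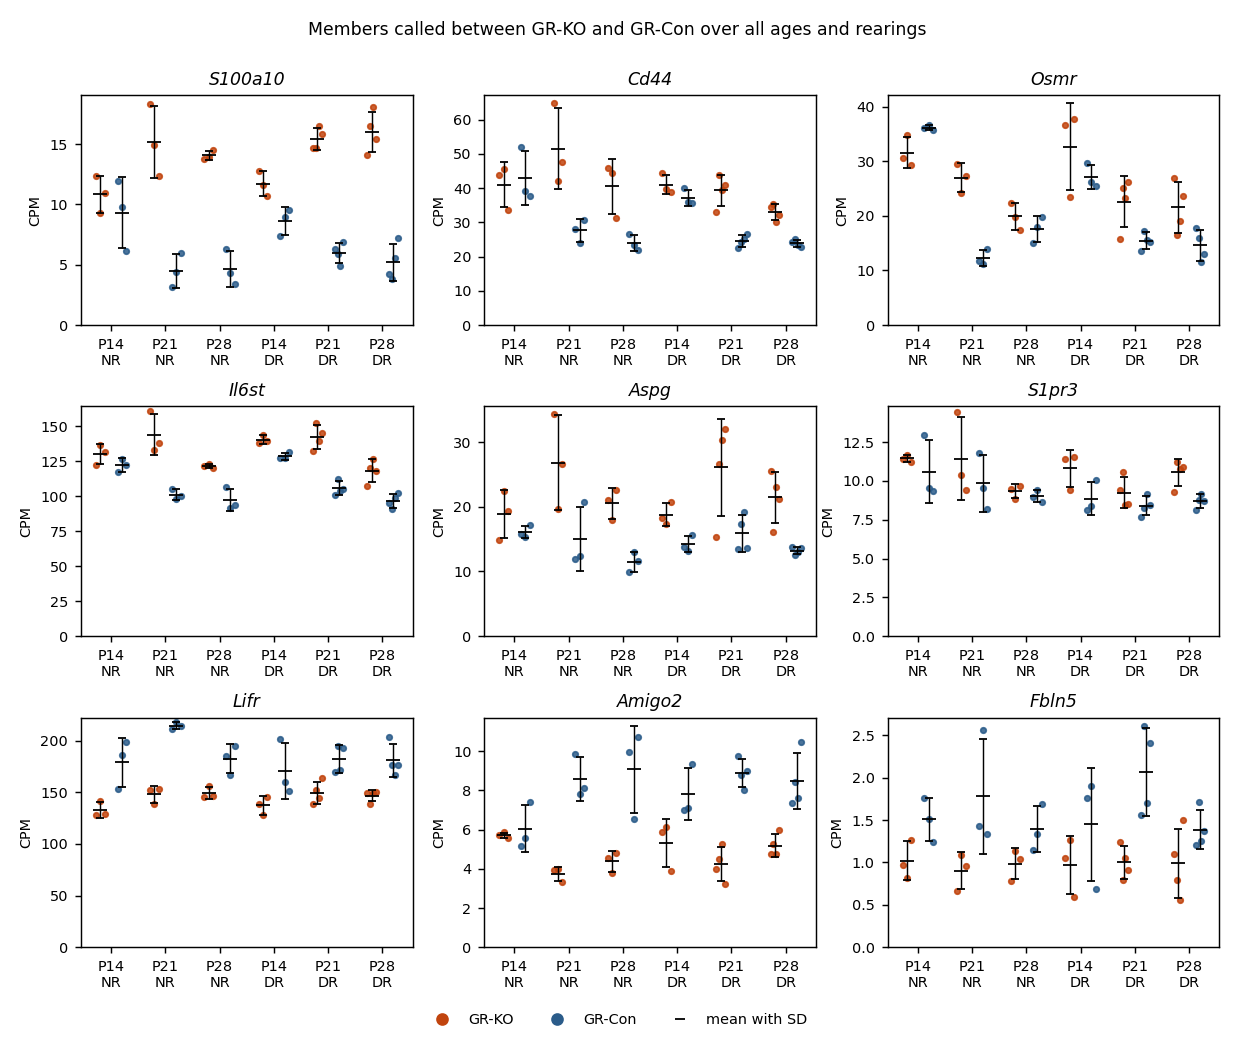
CPM of the 9 genes called in the average of the 6 comparisons, by library (points), with the mean and SD (bars), for GR-KO (left of each pair) and GR-Con (right) at each age and rearing. The GR-KO points of S100a10, Cd44 and Il6st lie above the GR-Con points at P21 and P28, and those of Amigo2 below them, while none of these 4 genes was called at P14.

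Of the 28 tested genes, 7 were called at P21 under NR, where 7.23% of all genes were called. In GR-KO 5 of them were higher (4.67% of all genes) and 2 lower (2.57%). At P28 under NR 7 were called (4.94% of all genes), 4 higher (3.4%) and 3 lower (1.54%). At P21 under DR 8 were called (6.68%), 5 higher (4.3%) and 3 lower (2.38%). At P28 under DR 7 were called (2.84%), 5 higher (1.02%) and 2 lower (1.82%). At P14 under NR 2 were called (1.11%), Lifr and Cp, both lower (0.649%). At P14 under DR edgeR called 0 (0.275% of all genes), with 6 at an unadjusted p below 0.05 and 0 called by the DESeq2 Wald test. The average of the 6 comparisons called 9, where 16% of all genes were called. Of these, 6 were higher (10.5% of all genes) and 3 lower (5.47%). With each library left out in turn the calls ran from 6 to 8 at P21 under NR, 5 to 8 at P28 under NR, 4 to 8 at P21 under DR (4 without GR-Con replicate 4), 3 to 5 at P28 under DR (3 without GR-KO replicate 1 or GR-Con replicate 4), 0 to 2 at P14 under NR (0 without GR-KO replicate 1) and 9 to 10 in the average. The genes did not move in 1 direction: their median log2 fold change was 0.33 at P21 under NR, -0.31 at P28 under NR, -0.11 at P21 under DR and 0.10 at P28 under DR, where the medians of all genes lay between -0.02 and 0.02.

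The best known markers of reactive astrocytes were among those without a call in the average of GR-KO against GR-Con. Gfap, the intermediate filament that defines these cells, ranged from 243 to 444 CPM and differed by 0.08 (95% interval -0.02 to 0.18, adjusted p = 0.271). At P14 under NR it had 294, 355 and 344 CPM in GR-KO, against 396, 392 and 381 CPM in GR-Con, lower in every GR-KO library, a difference of -0.24 (95% interval -0.48 to 0.01, adjusted p = 0.608) that was not called. At P21 its differences were positive, 0.30 (95% interval 0.05 to 0.55, adjusted p = 0.143) under NR and 0.30 (95% interval 0.08 to 0.51, adjusted p = 0.0856) under DR, and were not called either. C4b, a complement component whose reads could be shared with its near-identical neighbour C4a, ranged from 26.8 to 88.5 CPM and differed by -0.04 (95% interval -0.20 to 0.11, adjusted p = 0.757). At P21 under NR it had 83.7, 60.3 and 77.3 CPM in GR-KO, against 53.4, 52 and 60.2 CPM in GR-Con, without overlap, a difference of 0.42 (95% interval 0.02 to 0.82, adjusted p = 0.213). At P28 under NR the difference of C4b had the opposite sign, -0.44 (95% interval -0.84 to -0.05, adjusted p = 0.213). Neither was called. Serpina3n, a secreted protease inhibitor of the acute phase and a member of a large gene family, ranged from 0.909 to 5 CPM and differed by -0.20 (95% interval -0.45 to 0.04, adjusted p = 0.284). Vim, the filament vimentin, and Anxa2, annexin A2, differed on average by -0.14 (95% interval -0.27 to -0.01, adjusted p = 0.156) and -0.18 (95% interval -0.31 to -0.04, adjusted p = 0.061).

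Hspb1, a small heat shock protein, Emp1, a membrane protein, Sphk1, the kinase that makes sphingosine 1-phosphate, Tgm1, a transglutaminase, and Srgn, a proteoglycan core protein, were called in none of the 29 comparisons, like Socs3 and Il6ra. They ranged from 0 to 0.414 CPM for Hspb1, 0.245 to 1.56 CPM for Emp1, 0.279 to 1.47 CPM for Sphk1, 0.663 to 4.36 CPM for Tgm1 and 0.279 to 1.43 CPM for Srgn.

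Vim and Anxa2 were lower in GR-KO at P28 under NR. Anxa2 had 4.66, 5.62 and 4.93 CPM in GR-KO, against 10.1, 10.9 and 7.13 CPM in GR-Con (log2 fold change -0.88 ± 0.17 (SE), adjusted p = 0.00108), a call that held with each library left out. Vim averaged 19.6 ± 1.57 CPM in GR-KO, against 30.1 ± 4.09 CPM in GR-Con (SD, n = 3 each), with a log2 fold change -0.62 ± 0.17 (SE), adjusted p = 0.0232. The groups did not overlap for either gene, and the call of Vim was lost without GR-KO replicate 1 or 2 or GR-Con replicate 1 or 3 (adjusted p up to 0.132). Anxa2 went the other way from its partner S100a10, which was higher in GR-KO in the same libraries.

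**Figure D3:**
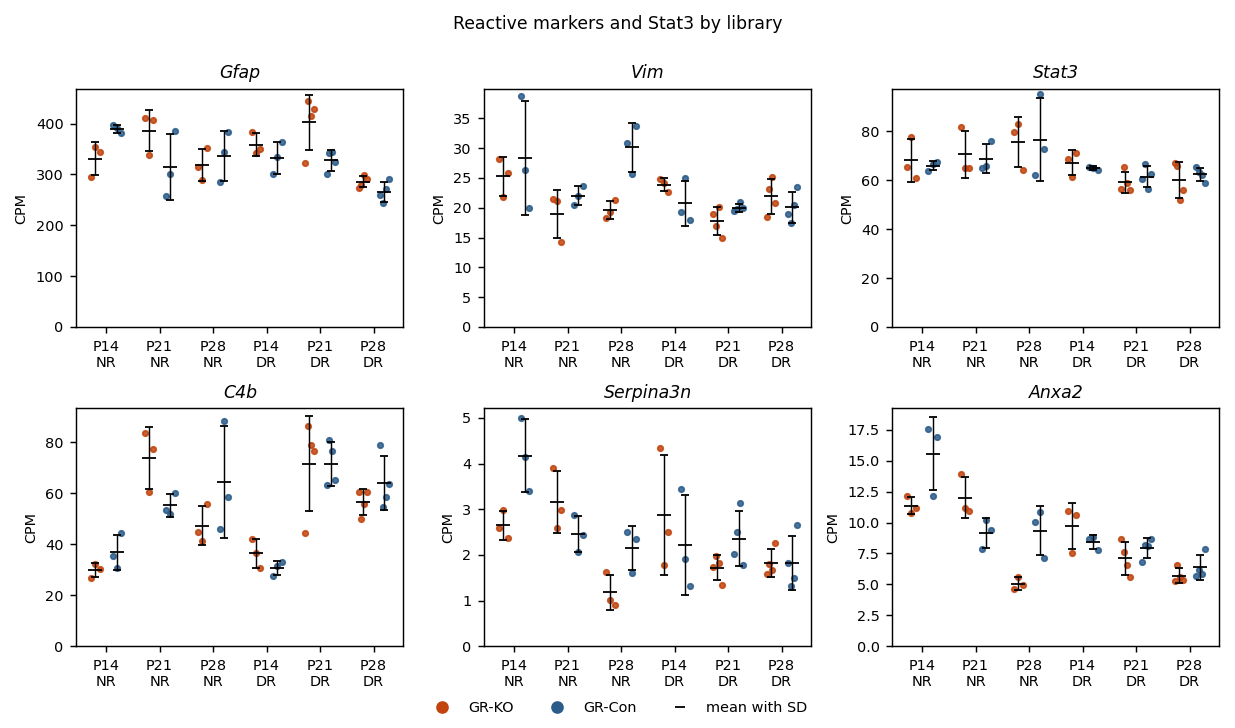
CPM of Gfap, Vim, Stat3, C4b, Serpina3n and Anxa2 by library (points), with the mean and SD (bars), for GR-KO (left of each pair) and GR-Con (right) at each age and rearing. The genotypes overlap in most pairs, C4b is higher at P21 than at P14 in each of the 4 series, and at P28 under NR the GR-KO points of Vim and Anxa2 lie below those of GR-Con.

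The difference between GR-KO and GR-Con changed between P14 and P21 under NR for 4 genes (0.304% of all genes were called in this interaction, 0.257% with a positive change). These were Osmr, with a change of the log2 fold change of 1.33 ± 0.25 (SE, adjusted p = 0.0128), Cd44 with 0.97 ± 0.20 (SE, adjusted p = 0.0235), S100a10 with 1.53 ± 0.31 (SE, adjusted p = 0.0235), and Cp, the copper-binding ferroxidase ceruloplasmin, with 2.40 ± 0.50 (SE, adjusted p = 0.0235). All 4 changes were positive. In the same interaction 3 of 7 tested markers of ependyma and choroid plexus and 1 of 7 of oligodendrocyte precursors were called, all positive, and their part in these changes was not tested. Cp had 2.61, 2.17 and 2.74 CPM in GR-KO, against 11.8, 4.04 and 5.34 CPM in GR-Con at P14 under NR (log2 fold change -1.50 ± 0.34 (SE), adjusted p = 0.0146) and 5.3, 3.47 and 3.52 CPM in GR-KO, against 1.56, 1.91 and 3.06 CPM in GR-Con at P21, where its difference of 0.89 (95% interval 0.14 to 1.65, adjusted p = 0.146) was not called. Hps3 covers 26.1% of Cp.

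Each of these calls was lost without some single libraries. Without P14 NR GR-Con replicate 1 the changes were 1.33 for Osmr (adjusted p = 0.0543), 0.80 for Cd44 (0.149), 1.30 for S100a10 (0.149) and 1.79 for Cp (0.168). Without P21 NR GR-KO replicate 1 the adjusted p were 0.0529 for Osmr, 0.156 for Cd44, 0.14 for S100a10 and 0.143 for Cp, and without P21 NR GR-Con replicate 2 they were 0.0572, 0.0863, 0.0722 and 0.0796 for the same genes. Leaving out P21 NR GR-Con replicate 1 ended the calls of Cd44 (0.061), S100a10 (0.0937) and Cp (0.0794), P14 NR GR-KO replicate 3 that of Cd44 (0.102), P14 NR GR-KO replicate 2 those of S100a10 (0.0593) and Cp (0.0588), and P14 NR GR-KO replicate 1 that of Cp (0.0568). Under DR the same change was 0.28 (95% interval -0.19 to 0.75, adjusted p = 0.757) for Osmr, 0.54 (95% interval 0.15 to 0.92, adjusted p = 0.607) for Cd44 and 0.93 (95% interval 0.35 to 1.50, adjusted p = 0.378) for S100a10, and edgeR called 0 of the 28 genes (0.0935% of all genes), with 5 at an unadjusted p below 0.05 and 0 called by DESeq2. Cp under DR had 2.11, 2.46 and 2.33 CPM in GR-KO, against 2.66, 2.59 and 1.32 CPM in GR-Con at P14. At P21 under DR, Cp had 3.38, 1.86, 2.22 and 2.05 CPM in GR-KO, against 3.19, 3.35, 2.96 and 4.02 CPM in GR-Con. The genotypes overlapped at both ages.

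Between P21 and P28 under NR, Anxa2 was the only gene of the 28 with a called change of the difference, -1.27 ± 0.24 (SE, adjusted p = 0.0133), where 0.14% of all genes were called, 0.129% with a negative change. Anxa2 had 13.9, 11.2 and 10.9 CPM in GR-KO, against 7.84, 10.2 and 9.44 CPM in GR-Con at P21, a difference of 0.39 (95% interval 0.03 to 0.75, adjusted p = 0.187), against the lower level in GR-KO at P28. The call was lost without P28 NR GR-KO replicate 1 (adjusted p = 0.0656), P21 NR GR-Con replicate 1 (0.0716) or P28 NR GR-Con replicate 2 (0.0871), while 2 genes were called without P21 NR GR-KO replicate 1. Under DR 0 genes were called between P21 and P28 (0.00585% of all genes), with 2 at an unadjusted p below 0.05 and 0 called by DESeq2.

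In GR-Con astrocytes several of the genes were lower at P21 than at P14, and C4b was higher. Markers of other cell types differed between these ages as well. Of 10 tested oligodendrocyte markers 9 were called higher at P21 in each of the 4 series, with summed levels of 697 to 1431 CPM at P21, against 244 to 461 CPM at P14. Of 12 endothelial and mural markers 3 were called lower in GR-Con and 5 in GR-KO under either rearing, with 142 to 209 CPM at P21, against 201 to 240 CPM at P14. Of 10 neuron markers 2 to 4 were called higher at P21 in each series, and 1 lower in GR-KO under NR. Of 9 microglia markers 3 were called higher in GR-Con and 2 in GR-KO under DR. Of 7 oligodendrocyte precursor markers 4 were called lower in GR-KO under either rearing. In GR-Con 1 of them was higher under either rearing, with 1 lower under NR and 2 under DR. The part of all these markers in the differences between ages was not tested. Under NR 8 genes were called in GR-Con (13.7% of all genes), 1 higher at P21 (6.53%) and 7 lower (7.12%). Without P14 NR GR-Con replicate 3 there were 13. Osmr had 11.7, 11.2 and 13.8 CPM at P21, against 36.1, 36.6 and 35.8 CPM at P14 (log2 fold change -1.55 ± 0.19 (SE), adjusted p = 2.98e-07). S100a10 had 3.17, 4.36 and 5.95 CPM at P21, against 11.9, 9.82 and 6.17 CPM at P14 (log2 fold change -1.04 ± 0.23 (SE), adjusted p = 0.0019). Neither gene overlapped between these ages. Among the membrane genes, Anxa2 had 7.84, 10.2 and 9.44 CPM at P21, against 17.6, 12.2 and 16.9 CPM at P14 (log2 fold change -0.76 ± 0.17 (SE), adjusted p = 0.0019), and Cd44 had 28.2, 24 and 30.7 CPM at P21, against 51.9, 39.1 and 37.7 CPM at P14 (log2 fold change -0.64 ± 0.15 (SE), adjusted p = 0.0022). All 4 genes were lower at P21 without overlap. Cp had 1.56, 1.91 and 3.06 CPM at P21, against 11.8, 4.04 and 5.34 CPM at P14 (log2 fold change -1.68 ± 0.36 (SE), adjusted p = 0.00109), and without P14 NR GR-Con replicate 1 its difference was -1.07 (adjusted p = 0.0455). B3gnt5, a glycosyltransferase, had 0.239, 0.654 and 0.335 CPM at P21, against 2.76, 1.36 and 1.42 CPM at P14 (log2 fold change -2.18 ± 0.52 (SE), adjusted p = 0.00363). Its P21 levels rest on few reads, 4, 12 and 8 counts. The P21 libraries of GR-Con are the same that GR-KO was compared with above.

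In GR-KO under NR 2 of the 28 genes (7.14%) were called between P14 and P21, near the 10% of all genes. They were C4b, higher (5.22% of all genes), and Amigo2, lower (4.82%). Of the 7 tested markers of ependyma and choroid plexus, 4 were called higher at P21 in this series, and their part in the result was not tested. Osmr had 29.5, 24.2 and 27.2 CPM at P21, against 30.6, 34.8 and 29.3 CPM at P14, with overlap and a difference of -0.23 (95% interval -0.59 to 0.13, adjusted p = 0.451). Cd44 and S100a10 of GR-KO differed between these ages by 0.33 (95% interval 0.04 to 0.62, adjusted p = 0.129) and 0.49 (95% interval 0.06 to 0.92, adjusted p = 0.135). Amigo2 had 3.94, 3.97 and 3.31 CPM at P21, against 5.7, 5.85 and 5.58 CPM at P14 (log2 fold change -0.61 ± 0.20 (SE), adjusted p = 0.0418), a call lost without any of the 6 libraries (adjusted p 0.0666 to 0.147).

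C4b was higher at P21 than at P14 in all 4 series, as were 9 of the 10 oligodendrocyte markers. In GR-KO under NR it had 83.7, 60.3 and 77.3 CPM at P21, against 26.8, 32.3 and 30.1 CPM at P14 (log2 fold change 1.31 ± 0.20 (SE), adjusted p = 2.29e-05). In GR-KO under DR it had 44.4, 86.3, 78.9 and 76.7 CPM at P21, against 41.9, 36.5 and 30.7 CPM at P14 (log2 fold change 0.98 ± 0.19 (SE), adjusted p = 3.40e-04). In GR-Con under DR it had 63.1, 80.8, 76.5 and 65.2 CPM at P21, against 27.6, 31.6 and 32.8 CPM at P14 (log2 fold change 1.22 ± 0.19 (SE), adjusted p = 1.34e-05). The ages did not overlap in these series. In GR-Con under NR the difference was smaller (log2 fold change 0.59 ± 0.20 (SE), adjusted p = 0.0379), and it was lost without any library but P14 NR GR-Con replicate 3 (adjusted p up to 0.165).

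Under DR 4 genes were called between P14 and P21 in GR-KO (11.5% of all genes), 1 higher at P21 (5.52%) and 3 lower (6.02%). In GR-Con 4 were called (13.2%), 2 higher (6.52%) and 2 lower (6.72%). Without P14 DR GR-KO replicate 1 only 1 call was left in GR-KO. Osmr was lower at P21 in both genotypes. In GR-KO it had 15.8, 25.1, 23.2 and 26.2 CPM at P21, against 36.7, 23.5 and 37.7 CPM at P14, with overlap (log2 fold change -0.53 ± 0.16 (SE), adjusted p = 0.0237). In GR-Con it had 13.5, 17.2, 15.7 and 15.3 CPM at P21, against 29.6, 26.2 and 25.4 CPM at P14, without overlap (log2 fold change -0.81 ± 0.16 (SE), adjusted p = 4.77e-04). Cd44 of GR-Con had 22.4, 24.4, 25.1 and 26.4 CPM at P21, against 39.9, 36.1 and 35.5 CPM at P14 (log2 fold change -0.60 ± 0.13 (SE), adjusted p = 0.00151). It was lower in every P21 library. Serping1, the inhibitor of the complement protease C1, was higher at P21 in GR-Con, with 2.43, 2.17, 1.98 and 1.48 CPM at P21, against 0.636, 1.37 and 0.709 CPM at P14 (log2 fold change 1.14 ± 0.35 (SE), adjusted p = 0.0213). B3gnt5 of GR-KO had 1.02, 0.992, 0.883 and 0.494 CPM at P21, against 2.56, 2.18 and 1.51 CPM at P14 (log2 fold change -1.29 ± 0.40 (SE), adjusted p = 0.0275). Tm4sf1, a membrane protein of the tetraspanin-like family, had 0.408, 0.774, 0.431 and 0.444 CPM at P21, against 1.12, 1.57 and 1.44 CPM at P14 (log2 fold change -1.42 ± 0.46 (SE), adjusted p = 0.0353). The ages did not overlap in Serping1, B3gnt5 or Tm4sf1. The calls of Osmr in GR-KO, of Serping1, of B3gnt5 and of Tm4sf1 were each lost without some single libraries. Osmr lost its call without P14 DR GR-KO replicate 1 or 3 or P21 DR GR-KO replicate 1 (adjusted p up to 0.157), and Serping1 without P14 DR GR-Con replicate 1 or 3 or P21 DR GR-Con replicate 1 (up to 0.12). B3gnt5 lost it without P14 DR GR-KO replicate 1 or 2 or P21 DR GR-KO replicate 3 or 4 (up to 0.152), and Tm4sf1 without any library but P21 DR GR-KO replicate 2 (up to 0.121).

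From P21 to P28 in GR-KO under NR 3 genes were called (2.74% of all genes), all lower at P28 (1.15%). Anxa2 had 4.66, 5.62 and 4.93 CPM at P28, against 13.9, 11.2 and 10.9 CPM at P21 (log2 fold change -1.25 ± 0.17 (SE), adjusted p = 1.38e-04). Serpina3n had 1.62, 1.02 and 0.909 CPM at P28, against 3.9, 2.59 and 2.99 CPM at P21 (log2 fold change -1.42 ± 0.32 (SE), adjusted p = 0.0117). Cd109, a surface protein that binds transforming growth factor-β, had 1.74, 2.21 and 1.31 CPM at P28, against 7.75, 4.85 and 3.68 CPM at P21 (log2 fold change -1.64 ± 0.44 (SE), adjusted p = 0.0347). The ages did not overlap in these genes. Without P21 NR GR-KO replicate 1, Serpina3n had an adjusted p of 0.0811 and Cd109 of 0.197. Serpina3n also lost its call without P28 NR GR-KO replicate 2 (0.0837), and Cd109 without P28 NR GR-KO replicate 1, 2 or 3 (0.109, 0.0857 and 0.0965). Under DR 2 genes were called (3.28%), 1 higher (1.9%) and 1 lower (1.38%). Gfap had 274, 279, 299 and 292 CPM at P28, against 323, 444, 414 and 429.8 CPM at P21 (log2 fold change -0.49 ± 0.11 (SE), adjusted p = 0.00695), lower without overlap. Tm4sf1 had 1.34, 1.56, 1.86 and 1.7 CPM at P28, against 0.408, 0.774, 0.431 and 0.444 CPM at P21 (log2 fold change 1.65 ± 0.42 (SE), adjusted p = 0.0232), a call lost without P21 DR GR-KO replicate 1, 3 or 4 or P28 DR GR-KO replicate 2 or 3 (adjusted p up to 0.0811). In GR-Con edgeR called 0 genes from P21 to P28 under NR (2.36% of all genes, with 4 at an unadjusted p below 0.05 and 0 called by DESeq2) and 0 under DR (3.91%, with 4 and 2).

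Dark rearing was tested at each age and genotype. Anxa2 was the only gene of the 28 called at a given age, in GR-KO at P21, with 8.64, 7.6, 6.59 and 5.56 CPM in DR, against 13.9, 11.2 and 10.9 CPM in NR (log2 fold change -0.76 ± 0.16 (SE), adjusted p = 0.0299, with 0.14% of all genes called and 0.0818% lower). The call was lost without P21 DR GR-KO replicate 2, 3 or 4 or P21 NR GR-KO replicate 1 or 2 (adjusted p up to 0.261). Averaged over ages and genotypes, 2 genes were called (3.1% of all genes), both lower in DR (1.89%), and 4 without P14 NR GR-Con replicate 3. Anxa2 had 5.24 to 11 CPM (median 7.58) in the 22 DR libraries, against 4.66 to 17.6 CPM (median 10.8) in the 18 NR libraries (log2 fold change -0.41 ± 0.07 (SE), adjusted p = 2.05e-04), and held with each library left out. Stat3 had 52.1 to 71.2 CPM (median 62.9) in DR, against 61.1 to 95.1 CPM (median 66.1) in NR (log2 fold change -0.18 ± 0.05 (SE), adjusted p = 0.0233), overlapping widely, and its call was lost when the 4 libraries with high meningeal or ependymal markers were left out (adjusted p = 0.0865).

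In the other 5 comparisons of DR with NR, edgeR called 0 of the 28 genes. In GR-KO this was so at P14 (0% of all genes, with 0 of the 28 at an unadjusted p below 0.05 and 0 called by DESeq2) and P28 (0.649%, with 3 and 0). In GR-Con it was so at P14 (0%, with 10 and 2), P21 (1.25%, with 2 and 1) and P28 (0.421%, with 4 and 1). Without P14 NR GR-Con replicate 2 there were 2 calls in GR-Con at P14, without P28 NR GR-Con replicate 3 there was 1 in GR-Con at P28, and without P28 NR GR-KO replicate 3 there was 1 in GR-KO at P28. At P14 in GR-Con 26 of the 28 genes had a negative log2 fold change, with a median of -0.39, against -0.000665 for all genes. Without P14 NR GR-Con replicate 1 the median was -0.18 and 22 were negative. The difference between GR-KO and GR-Con did not pass the test for a change with rearing for any of the 28 genes, at P14 (0% of all genes, with 7 at an unadjusted p below 0.05), P21 (0%, with 5) or P28 (0.00585%, with 3), and DESeq2 called 0 at each age.

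The library P14 NR GR-Con replicate 1 stood apart in these genes. It had the highest level of all libraries in 11 of the 30 genes with counts, and P21 NR GR-KO replicate 1 in 7. C3, the central complement component, had 5.87 CPM there (230 counts), against at most 0.511 CPM in any other library. Lcn2 had 1.89 CPM (74 counts), against at most 0.545 CPM elsewhere, and Steap4 4.85 CPM (190 counts), against at most 0.468 CPM. Its 2 companion replicates had 8 and 6 counts of C3, 2 and 0 of Lcn2, and 2 and 2 of Steap4. Cp was 11.8 CPM there, against at most 5.34 CPM in any other library. The same library had a summed level of 103 CPM of the 8 meningeal fibroblast markers, where all libraries ran from 27.2 to 120 CPM, and of 27.1 CPM of the 8 markers of ependyma and choroid plexus, where all ran from 4.73 to 82.4 CPM. P28 DR GR-KO replicate 4, with the highest meningeal sum, had 0.322 CPM of C3, 0.023 CPM of Lcn2 and 0 CPM of Steap4. P21 NR GR-KO replicate 1, with the highest ependymal sum, had 0.390 CPM of C3 and was the next highest library for Lcn2 and Steap4, with 0.545 and 0.468 CPM.

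Results that use this library were recomputed without it. The call of Cp at P14 under NR went to a log2 fold change of -0.90 (adjusted p = 0.32), and it was lost also without P14 NR GR-KO replicate 1 (0.0568) or 2 (0.104). The lower C3 of GR-Con at P21 than at P14 under NR (log2 fold change -4.95 ± 1.33 (SE), adjusted p = 0.00938) went to -1.77 (adjusted p = 0.502), and was lost by little without P21 NR GR-Con replicate 1 (0.0509) or 2 (0.0512). Without P21 NR GR-Con replicate 3, which held 4 counts of C3, the other 2 libraries held 0, and the fitted difference of -9.32, which kept its call, is no bound. Over the 28 genes, the median log2 fold change of GR-KO over GR-Con at P14 under NR was -0.27 with this library and -0.19 without it, with 21 and 17 negative values.

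**Figure D4:**
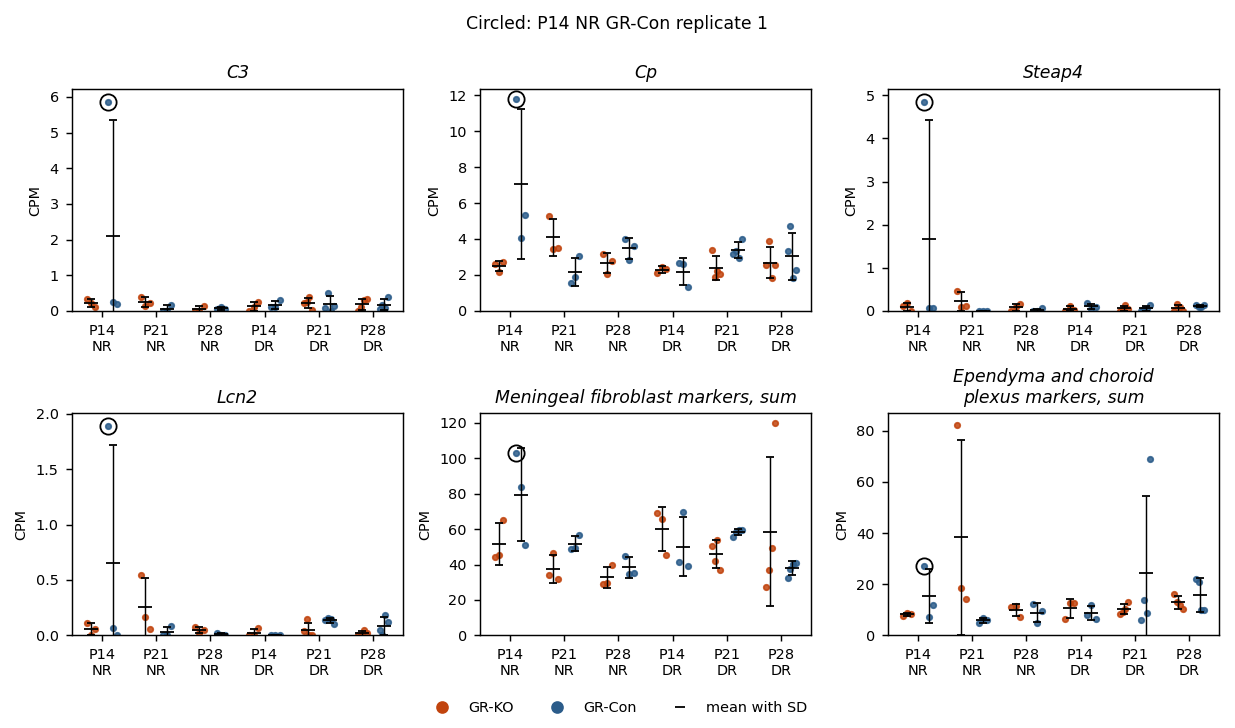
CPM of C3, Cp, Steap4 and Lcn2, and the summed CPM of meningeal fibroblast and of ependyma and choroid plexus markers, by library (points), with the mean and SD (bars), for GR-KO (left of each pair) and GR-Con (right) at each age and rearing; P14 NR GR-Con replicate 1 is circled. The circled library is the highest of all in the 4 genes. P28 DR GR-KO replicate 4 (120 CPM) is higher in the meningeal sum, and P21 NR GR-KO replicate 1 (82.4 CPM) and P21 DR GR-Con replicate 4 (69.1 CPM) are higher in the ependymal sum.

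Further genes of the same pathways were read from lists. Of 12 other ligands and receptors of the gp130 family, 8 were tested. In the average of GR-KO against GR-Con, where 10.5% of all genes were higher and 5.47% lower, 1 of the 8 was higher and 1 lower. Lif, the cytokine that binds LIFR, was higher (log2 fold change 0.50 ± 0.11 (SE), adjusted p = 0.00153), and Cntfr, the receptor subunit for ciliary neurotrophic factor that works with LIFR and gp130, was lower (log2 fold change -0.38 ± 0.05 (SE), adjusted p = 2.15e-07). Il31ra, the IL-31 receptor, was called lower at P21 under DR (log2 fold change -0.64 ± 0.18 (SE), adjusted p = 0.0244). The ligands Il6 and Osm stayed at or below 0.153 CPM in every library, and Cntf, which lies wholly inside another gene of the table, had 0 counts. The median of the 8 was 0.02, against -0.01 for all genes.

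Of 30 other genes of JAK-STAT signalling, 2 were higher (10.5% of all genes) and 2 lower (5.47%) in the average of GR-KO against GR-Con. Cebpd, a transcription factor of the acute phase, was lower (log2 fold change -0.70 ± 0.07 (SE), adjusted p = 6.14e-10), with 3.91 CPM in GR-KO and 6.4 CPM in GR-Con. At P21 under NR, Stat2, which carries interferon signals, was higher (log2 fold change 0.72 ± 0.15 (SE), adjusted p = 0.00125), while Stat3 differed by 0.04 (95% interval -0.21 to 0.28, adjusted p = 0.898). Stat5a was lower on average (log2 fold change -0.26 ± 0.07 (SE), adjusted p = 0.0102). Spidr covers 14.2% of Cebpd.

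Of 29 tested genes of NF-kB, tumour necrosis factor and IL-1 signalling, 3 were higher (10.5% of all genes) and 4 lower (5.47%) on average in GR-KO. Nfkbia, which encodes the NF-kB inhibitor IκBα, was lower (log2 fold change -0.89 ± 0.07 (SE), adjusted p = 8.22e-13), with 8.68 CPM in GR-KO and 16.1 CPM in GR-Con. Relb, an NF-kB subunit, was higher (log2 fold change 0.47 ± 0.07 (SE), adjusted p = 3.41e-06), and Il1r1, the IL-1 receptor, lower (log2 fold change -0.40 ± 0.07 (SE), adjusted p = 1.84e-05). Nfkbiz, a nuclear regulator of NF-kB, was lower (log2 fold change -0.20 ± 0.05 (SE), adjusted p = 0.00173).

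Of 18 tested complement genes outside the 34, 0 were called higher (10.5% of all genes) and 4 lower (5.47%) on average. Masp1, a protease of the lectin pathway, was lower (log2 fold change -0.88 ± 0.04 (SE), adjusted p = 1.27e-17), with 23 CPM in GR-KO and 43.7 CPM in GR-Con. C2 (log2 fold change -0.89 ± 0.13 (SE), adjusted p = 2.99e-06) and Cfb (log2 fold change -0.29 ± 0.08 (SE), adjusted p = 0.00486), which form proteases of the complement cascade, were also lower. The median of the 18 was -0.12. Of 17 tested further genes of reactive astrocytes, 1 was higher (10.5% of all genes), Ggta1 (log2 fold change 0.20 ± 0.06 (SE), adjusted p = 0.0244), and 3 were lower (5.47%), the metallothionein Mt2 (log2 fold change -0.80 ± 0.10 (SE), adjusted p = 3.62e-08), the monoamine oxidase Maob (log2 fold change -0.25 ± 0.05 (SE), adjusted p = 4.17e-04) and the class I histocompatibility gene H2-D1, which belongs to a family of near-identical genes (log2 fold change -0.49 ± 0.15 (SE), adjusted p = 0.0223).

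Promoter sequences (RefSeq, GRCm38.p6, 250 bases before to 50 after a start) were held for 29 of the 34 genes and were searched on both strands. A gene was counted where any of its promoters held the letters, and the share of all 27025 genes with a promoter is counted the same way. The letters of a STAT dimer site, TTCNNNGAA, stood in 6 of the 29 (Gfap, Socs3, Emp1, Sphk1, Steap4 and Tgm1), against 9.55% of all genes. Those of a glucocorticoid response element, GNACA and TGTNC with 3 bases between them, stood in 1, Serpina3n, against 0.537%. The AP-1 letters TGANTCA stood in 6, Osmr and Anxa2 among them, against 8.97%. The loose NF-kB letters, GGG and CC with 5 bases between them, stood in 27, against 53.5%, and the C/EBP letters TTGCNNAA in 6, against 12.2%. The stretches with the STAT match of Gfap, which spans the start site, and the match of Serpina3n, 78 bases before the start used for its promoter, are shown because Gfap is the defining gene and Serpina3n the only holder of the receptor's letters (Gfap chr11:102897194-102897450, minus strand; Serpina3n chr12:104406458-104406645, plus strand), with the matches in capitals. The Serpina3n stretch ends 62 bases before that start, directly before the gene's outermost RefSeq start at chr12:104406646.
Gfap: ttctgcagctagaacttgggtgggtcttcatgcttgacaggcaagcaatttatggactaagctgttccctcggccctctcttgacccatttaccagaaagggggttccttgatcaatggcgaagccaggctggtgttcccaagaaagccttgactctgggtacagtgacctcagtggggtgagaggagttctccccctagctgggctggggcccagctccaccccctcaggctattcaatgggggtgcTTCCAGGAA
Serpina3n: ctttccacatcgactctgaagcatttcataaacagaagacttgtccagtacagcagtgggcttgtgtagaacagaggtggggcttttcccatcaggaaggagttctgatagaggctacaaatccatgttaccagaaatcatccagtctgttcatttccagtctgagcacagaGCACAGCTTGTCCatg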

How the data were processed

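RNA of sorted V1 astrocyte nuclei was measured in 40 libraries. Per the submitters' processing notes and the study's methods, the authors aligned the reads with STAR to mm10 and deposited raw read counts over gene bodies, exons and introns together, made with featureCounts of Subread; the authors used DESeq2 for testing. For the strand setting, the value was not given in the sources used here. Reads that fall on overlapping genes can be lost in such counting. GRCm38.p6 RefSeq tables gave names, positions and promoters.

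Counts were analysed with edgeR 4.0.16 (R 4.3.3, limma 3.58.1): all 40 libraries, 12 group means, filterByExpr (17106 of 25239 genes kept), TMM factors of 0.882 to 1.07, quasi-likelihood tests with 28 residual degrees of freedom and Benjamini-Hochberg adjustment over all tested genes, in 29 comparisons. A gene was called where its adjusted p was under 0.05; genotype comparisons also required a log2 fold change over 0.1 in size, and age comparisons one over 0.3. CPM used TMM-scaled library sizes. Standard errors were the absolute log2 fold change over the root of the F statistic. The common biological coefficient of variation was 0.132. The test was tried on simulated data with the same spread for every gene and changes placed only in genes above a low mean level. That trial does not cover genes at the lowest levels.

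Libraries held 17240294 to 49221787 counts and 17322 to 19795 detected genes. No pair of replicates agreed within sampling noise (chi-square per degree of freedom of 7.38 to 144 over 48 pairs). Replicates are separate pools of 2 animals. Groups came from the labels. A gene called in a comparison is given with its values per library for the 6 with the smallest adjusted p and by group means for the rest, genes never called by their range, and up to 4 called genes of each pathway list by smallest adjusted p; Il6, Osm and Cntf were named after their values were seen, and some genes of these lists are not reported here. The members and lists were chosen with earlier results of these data known. Alternatives were the DESeq2 1.42.0 Wald test and size factors, no filter, no fold threshold, only the groups compared, a replicate block, each library left out, and sets of 3 and 4 libraries left out, the set of 4 chosen after seeing the data.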

Additional observations from a re-analysis of the deposited data

Results flagged for a closer look

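In the P21 DR GR-KO group Tm4sf1 had 0.7741 CPM in replicate 2, against 0.4076 to 0.4445 CPM in the other 3 libraries, and in the P28 DR GR-Con group it had 1.892 CPM in replicate 2, against 0.6986 to 0.8473 CPM. Lifr had 138.4 CPM in P28 DR GR-KO replicate 2, against 148.9 to 150.5 CPM in the other 3. These libraries lay far from the rest of their group by Dixon's criterion for 4 samples. Over the 112 sets of 4 libraries examined this picked out 3, where chance picks out about 1 in 20.

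The difference between GR-KO and GR-Con itself differed between ages under NR in 5 genes, by the interaction term of edgeR. From P14 to P21 it changed by 1.329 for Osmr, 0.9689 for Cd44, 1.525 for S100a10 and 2.397 for Cp, and from P21 to P28 by -1.274 for Anxa2, all on the log2 scale. Each call was lost without at least 3 of the single libraries.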

How the results depend on the processing

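No direction changed under any alternative. Of the 71 values of called genes, all kept their call with the DESeq2 Wald test and with its size factors, 70 without the filter on low counts (Amigo2 from P14 to P21 in NR GR-KO was lost), 44 of 59 with only the groups compared, 59 of 71 without 3 libraries (replicate 3 of P14 NR GR-KO, replicate 1 of P21 NR GR-Con and replicate 2 of P21 DR GR-Con) and 53 of 71 without the 4 libraries with high meningeal or ependymal markers, a set chosen after seeing the data. With single libraries left out, 748 values kept their call and 125 did not. The causes were not tested.

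The counts of called genes moved as follows. Without the 3 libraries they were 0 for GR-KO against GR-Con at P14 NR, 1 for P21 against P14 in NR GR-KO, and 0 for the change of the genotype difference from P14 to P21 and from P21 to P28 under NR. Without the 4 libraries they were 1 at P14 NR and 5 at P21 DR for GR-KO against GR-Con, 1 in P28 GR-Con, 0 in P21 GR-KO and 1 on average for DR against NR, 1 for P21 against P14 and 1 for P28 against P21 in NR GR-KO, and 0 for both of those changes under NR. With only the groups compared they were 0 at P14 NR and 4 at P28 DR for GR-KO against GR-Con, 1 in P21 GR-Con and 0 in P21 GR-KO for DR against NR, 1 for P28 against P21 in each of NR GR-Con, NR GR-KO and DR GR-Con, 1 for P21 against P14 in NR GR-KO, and 1 and 0 for those changes under NR. DESeq2 called 2 in P14 GR-Con, 1 in P21 GR-Con and 1 in P28 GR-Con for DR against NR, 2 for P28 against P21 in DR GR-Con, and 2 for the change from P21 to P28 under NR. Without the filter 1 was called for P21 against P14 in NR GR-KO.

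Deviations of same-numbered libraries of different groups had a mean r of 0.0218 over 56 pairs, 12 of them over 0.1. The 144 other pairs had a mean r of -0.00846, with 17 over 0.1. These values cannot exclude a batch or pairing shared by libraries of the same number. With the replicate block 67 of the 71 values kept their call (lost were Stat3 for DR against NR on average, Amigo2 for P21 against P14 in NR GR-KO, Tm4sf1 for P21 against P14 in DR GR-KO and Lifr at P28 DR, with adjusted p of 0.0600, 0.0514, 0.0540 and 0.0637), and the counts were 1 on average for DR against NR and 1 for P21 against P14 in NR GR-KO.

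Leaving out single libraries gave 0 to 2 called genes at P14 NR, 4 to 8 at P21 DR and 3 to 5 at P28 DR for GR-KO against GR-Con. For DR against NR it gave 0 to 2 in P14 GR-Con, 0 to 1 in each of P28 GR-Con, P21 GR-KO and P28 GR-KO, and 2 to 4 on average. For P21 against P14 it gave 6 to 13 in NR GR-Con, 1 to 3 in NR GR-KO and 1 to 4 in DR GR-KO, and for P28 against P21 it gave 1 to 4 in NR GR-KO and 1 to 2 in DR GR-KO. For the change of the genotype difference under NR it gave 0 to 5 from P14 to P21 and 0 to 2 from P21 to P28.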
